A study of Arabidopsis thaliana with 6 samples.

Results

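The genes VPS60.1, SNF7.1, SNF7.2, VPS2.1 and VPS2.2 encode subunits of ESCRT-III, the last of the endosomal sorting complexes required for transport. They were picked by gene symbol, with their isoxaben difference already known, from the probe sets that the platform's annotation assigns to exactly 1 gene. Each of the 5 genes had 1 such probe set, among 13356 genes with at least 1. Transcripts of Arabidopsis thaliana suspension-cultured cells were measured on 6 Affymetrix ATH1 arrays in a study of how the pectic matrix of the cell wall is assembled. Control cultures (3 arrays) and cultures labelled with 0.1 mM isoxaben (3 arrays) grew in the same Murashige and Skoog medium with sucrose, naphthaleneacetic acid (a synthetic auxin) and the cytokinin kinetin. Isoxaben is a herbicide that blocks cellulose synthesis. The labels give no ecotype, no length of treatment and no word on whether the cells had been adapted to isoxaben, nor do they state whether the replicates are different cultures. All cells came from suspension culture, so the values describe no organ. Of 8 leaf, seed, pollen and root hair markers listed to check the tissue, only the root hair gene EXPA7 had a named probe set, and its signal was 11.0 to 18.4.

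ESCRT complexes sort ubiquitin-tagged membrane proteins into vesicles that bud into the interior of late endosomes, the multivesicular bodies, which then fuse with the vacuole, where the cargo is degraded. ESCRT-I and ESCRT-II gather the cargo. ESCRT-III subunits assemble on the membrane into filaments that narrow and cut the neck of the vesicle, and the ATPase SKD1 (VPS4 in yeast) takes the filaments apart. SNF7, also called VPS32, forms most of the filament. VPS2 binds late and brings in the ATPase, and VPS60 is an SNF7-related subunit that in yeast binds an activator of the ATPase. In plants this route removes receptors, transporters and auxin carriers from the plasma membrane.

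The titles place the arrays in 2 sets. The first holds control and isoxaben replicate 1, the second holds replicates 2 and 3 of both groups. Control replicate 1 had 7023 array cells marked as outliers in its label, against 160 to 613 on the other arrays. Isoxaben replicate 1 carries the code DCB in its source name, although its title and treatment label name isoxaben. Both arrays were kept, and values with and without them are given below. Median signals were 31.6 to 42.0. Signals are linear and were already scaled by the authors. Log2 values are log2(signal + 16), on which a change is isoxaben minus control and understates the change of dim genes.

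Messages of VPS60.1, SNF7.1, SNF7.2 and VPS2.1 were lower in the isoxaben cultures and that of VPS2.2 was higher. VPS60.1, with a 4.55-fold lower mean signal, and VPS2.2, with a 4.32-fold higher one, differed most. These differences were known when the genes were chosen, so they are described here and not tested.

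VPS60.1 (AT3G10640) had signals of 247.9, 345 and 335.7 on control arrays 1, 2 and 3, and of 63.1, 74.3 and 66.5 on isoxaben arrays 1, 2 and 3. Control replicate 1 was the lowest control and still lay far above every isoxaben array. The mean signal was 309.5 ± 53.6 (SD, n = 3) in control and 68.0 ± 5.74 (SD, n = 3) in isoxaben cultures, a 4.55-fold lower mean, and the fitted log2 change was -1.94 ± 0.14 (SE).

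The filament-forming SNF7 genes were both lower. SNF7.1 (AT4G29160) had signals of 140.8, 142.1 and 125.7 in control and of 57.0, 53.7 and 43.3 in isoxaben cultures. Replicate 3 was the lowest array of each group, and the groups did not overlap. Its mean went from 136.2 ± 9.12 to 51.3 ± 7.15 (SD, n = 3 each), a log2 change of -1.18 ± 0.13 (SE). SNF7.2 (AT2G19830) had signals of 180.1, 244.8 and 247.3 in control and of 55.4, 67.3 and 58.5 in isoxaben cultures. As for VPS60.1, replicate 1 was the lowest array of each group. The mean of SNF7.2 went from 224.1 ± 38.1 to 60.4 ± 6.17 (SD, n = 3 each), a log2 change of -1.64 ± 0.14 (SE). The change of SNF7.2 was lower than that of SNF7.1 by a log2 difference of -0.46, with -0.35 in the first title set and -0.51 in the second.

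The paralogs VPS2.1 and VPS2.2 went opposite ways. VPS2.1 (AT2G06530) had signals of 639.8, 755.9 and 743.4 in control and of 293.2, 332.3 and 381.2 in isoxaben cultures. Replicate 1 was the lowest array of each group, and the groups did not overlap. Its mean signal went from 713 ± 63.7 to 335.6 ± 44.1 (SD, n = 3 each), a log2 change of -1.06 ± 0.12 (SE) and the smallest of the 5 in size. VPS2.2 (AT5G44560) had signals of 188.6, 108.8 and 123.4 in control and of 558.7, 578.2 and 681.5 in isoxaben cultures. Here control replicate 1 was the highest control, and isoxaben replicate 1 the lowest isoxaben array. The mean of VPS2.2 went from 140.3 ± 42.5 to 606.1 ± 66.0 (SD, n = 3 each), 4.32-fold higher, with a log2 change of 2.02 ± 0.18 (SE). Between the paralogs the changes differed by 3.08 on the log2 scale, by 2.57 in the first title set and by 3.33 in the second.

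**Figure D1:**
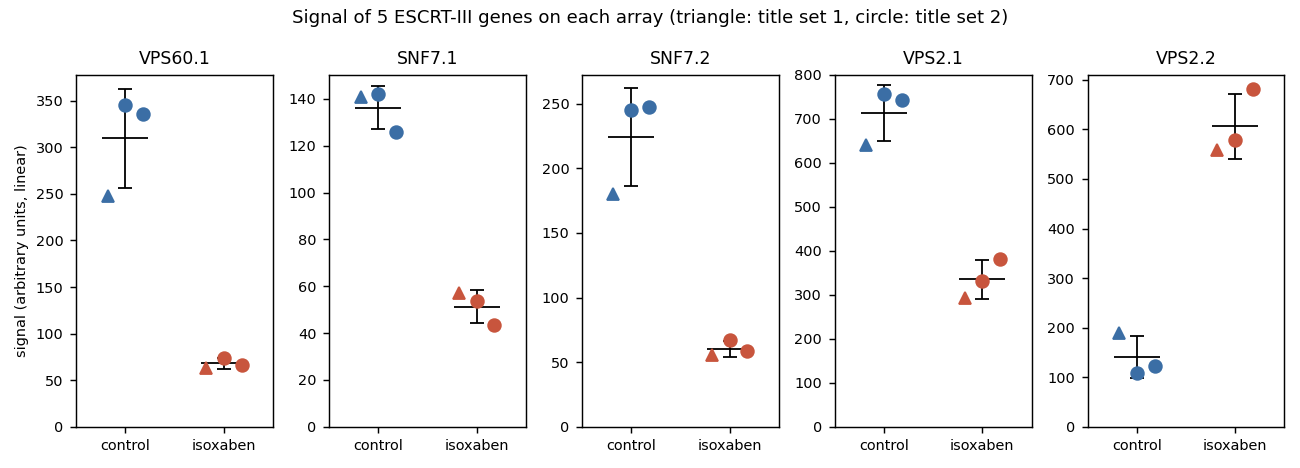
Signal (linear, arbitrary units) of VPS60.1, SNF7.1, SNF7.2, VPS2.1 and VPS2.2 on each of 6 arrays; bars are the mean and SD of 3 arrays per group, triangles are arrays of the first title set and circles of the second. The groups do not overlap for any of the 5 genes, and control replicate 1 lies nearest to the isoxaben arrays for 4 of them, SNF7.1 being the exception.

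No member's groups overlapped, and the lowest signal of any member on any array was 43.3, above the signal of 22.1 at which dim probe sets were dropped. All 5 passed that filter. In the limma fit over 13648 probe sets (Benjamini-Hochberg adjusted p under 0.05), 4 of the 5 were called lower, where 27.2% of all probe sets were, and 1 was called higher, where 29.4% were. Groups did not overlap for 63.2% of all probe sets. As the genes were chosen on this comparison, nothing is read from these counts. Of the 13648 probe sets, 300 had a lower change than VPS60.1, 479 than SNF7.2, 996 than SNF7.1 and 1228 than VPS2.1, and 279 had a higher change than VPS2.2. The median change of all probe sets was 0.00824. In RNA of whole cultures, fewer cells that use a gene and less of its RNA per cell cannot be told apart.

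**Figure D2:**
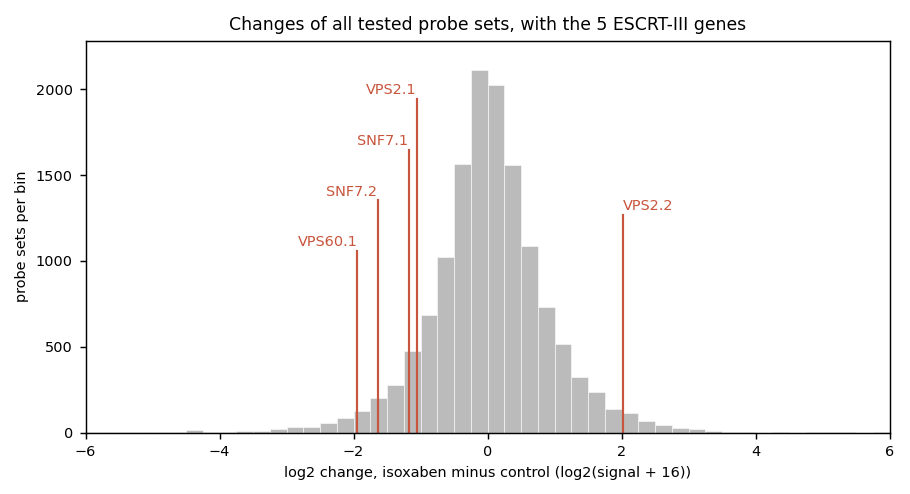
Number of tested probe sets per bin of log2 change (isoxaben minus control, log2(signal + 16)), with vertical lines at the changes of VPS60.1, SNF7.2, SNF7.1, VPS2.1 and VPS2.2; line heights carry no value. The lower 4 lie between -1.94 and -1.06 and VPS2.2 lies at 2.02, while the median of all probe sets is 0.00824.

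The remaining genes listed as ESCRT machinery were also mostly lower. Among the 23 tested of the 41 listed, members included, VPS2.2 was the only gene called higher. It is on the list as a member chosen with its change known, so nothing is read from that call. Leaving out the 5 members, 36 genes were listed by locus from background knowledge, with earlier results of these data known. Of the 36, 19 had a named probe set and 18 passed the filter on dim probe sets. Of these 18, 14 fell, none rose and 4 did not pass (limma, adjusted p under 0.05), with a median log2 change of -0.87. Over all probe sets, 27.2% were called lower and 29.4% higher, and the median was 0.00824. At an unadjusted limma p under 0.05 the number of rises was also 0. Only 8 of the 18 carry a name in the annotation, and 7 of these 8 fell. The other 10 are known here by locus alone, so that their place on the list could not be checked, and 7 of them fell. Most of these 10 were listed as TOL family or associated genes, not as subunits of ESCRT-I, ESCRT-II or ESCRT-III.

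Of 8 named ESCRT-III genes listed outside the chosen 5, 4 were tested and all 4 fell, where 27.2% of all probe sets were called lower. VPS46.2, a CHMP1 protein (charged multivesicular body protein), fell from a signal of 620.2 ± 64.7 to 231.7 ± 52.4 (SD, n = 3 each), with a log2 change of -1.38 ± 0.16 (SE; limma adjusted p = 6.19e-05). VPS24.1, which in yeast acts together with VPS2, fell from 348.7 ± 46.9 to 132.8 ± 9.60 (-1.29 ± 0.13, limma adjusted p = 1.70e-05). VPS20.1, whose yeast counterpart starts the SNF7 filament, fell from 199.2 ± 24.5 to 96.0 ± 3.26 (-0.94 ± 0.12, limma adjusted p = 9.50e-05). VPS60.2, the paralog of VPS60.1, fell from 138.9 ± 26.5 to 72.1 ± 3.49 (-0.80 ± 0.14, limma adjusted p = 0.000969). Also listed as ESCRT-III, but known here by locus alone, were AT1G34220 and AT3G62080. AT1G34220 fell (-0.83 ± 0.16, limma adjusted p = 0.00140). AT3G62080 missed the threshold (-0.28 ± 0.14, limma adjusted p = 0.104), and its groups overlapped. VPS24.2 had signals of 0.4 to 0.6 on all 6 arrays and was dropped as dim. The paralogs VPS2.3 and VPS20.2, the ATPase SKD1 and the deubiquitinases AMSH1, AMSH2 and AMSH3 have no probe set named here and were not analysed.

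Of the upstream complexes, 4 named genes were tested and 3 fell, where 27.2% of all probe sets were called lower. In ESCRT-I, VPS37-2 fell from 131.2 ± 6.40 to 46.7 ± 10.5 (-1.24 ± 0.14, limma adjusted p = 4.86e-05), and ELC, the ubiquitin-binding VPS23 of Arabidopsis, from 224 ± 18.7 to 146.2 ± 14.8 (-0.57 ± 0.12, limma adjusted p = 0.00235). In ESCRT-II, VPS22 fell from 297.6 ± 13.0 to 212.8 ± 12.7 (-0.46 ± 0.10, limma adjusted p = 0.00377). The value for VPS36 of the same complex was -0.22 ± 0.13, which missed the threshold (limma adjusted p = 0.196), and without control replicate 1 it was -0.08. The median log2 change was -1.11 for the 4 further named ESCRT-III genes and -0.51 for the 4 named ones of ESCRT-I and ESCRT-II. This difference was not tested. The first median leaves out AT1G34220 and AT3G62080, with changes of -0.83 and -0.28.

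**Figure D3:**
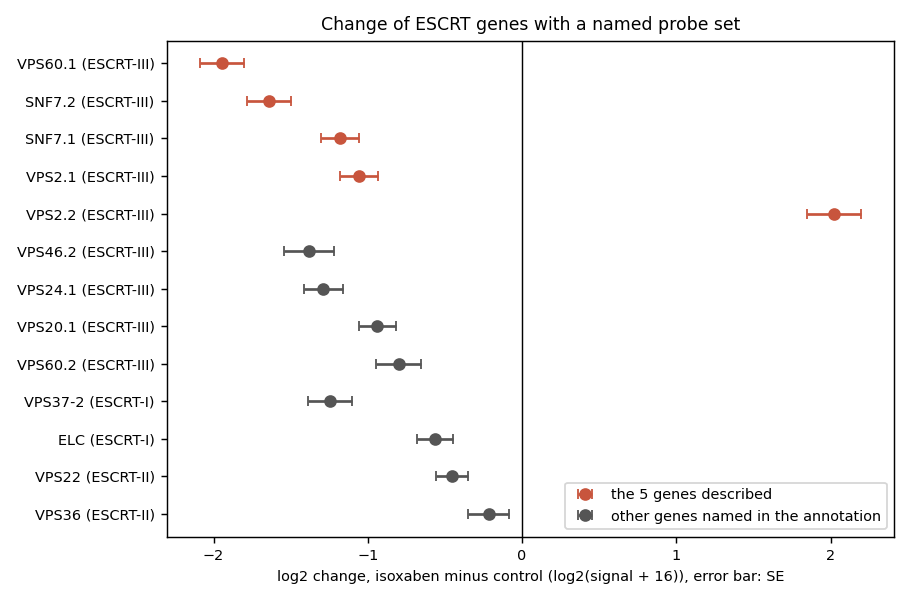
Fitted log2 change (isoxaben minus control) with SE of the 13 named and tested ESCRT genes, grouped by complex, with the 5 chosen genes in red and the others in grey. VPS2.2 lies at 2.02 and every other gene below 0, from -1.94 for VPS60.1 to -0.22 for VPS36.

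A second list held 42 genes that act on the same endosomes or at their fusion with the vacuole: the retromer, tethering complexes, GTPases, SNAREs and sorting receptors. Only 4 had a named probe set, so the list says little. Of these 2 fell, none rose (0 also at an unadjusted limma p under 0.05) and 2 did not pass, where 27.2% of all probe sets were lower and 29.4% higher. The endosomal GTPase ARA6 fell from 629.2 ± 111 to 411 ± 50.9 (-0.59 ± 0.15, limma adjusted p = 0.00697), and the other call was a gene known here by locus only.

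The isoxaben difference was also set apart by title set, because both arrays with a doubt on them lie in the first. All 5 genes had the same direction in both sets, as had 99.8% of all called probe sets. In the first set, with 1 array of each group, the log2 changes were -1.74 for VPS60.1, -1.10 for SNF7.1, -1.46 for SNF7.2, -1.08 for VPS2.1 and 1.49 for VPS2.2. In the second, with 2 of each, they were -2.05, -1.22, -1.73, -1.04 and 2.29 in the same order. A difference in change between the sets was tested as an interaction in limma, which called 606 of 13648 probe sets (4.44%). The first set has a single array per group, so the residual spread of a gene comes from the second set alone. Limma moderates that spread with the spread of all tested probe sets. A difference between the sets cannot be told apart from a deviation of 1 of the 2 arrays of the first set. VPS2.2 was among the calls, with a change larger by 0.80 ± 0.17 (SE) in the second set (adjusted p = 0.0382). Without a filter on dim probe sets, this limma call was lost (adjusted p = 0.149). VPS60.1 (-0.31 ± 0.16, limma adjusted p = 0.263), SNF7.2 (-0.28 ± 0.17, 0.351), SNF7.1 (-0.12 ± 0.21, 0.773) and VPS2.1 (0.04 ± 0.15, 0.891) did not pass. On the log2 scale, control replicate 1 lay above the mean of the other controls by 0.63 for VPS2.2 and by 0.07 for SNF7.1, and it differed from that mean by -0.43 for VPS60.1, -0.42 for SNF7.2 and -0.22 for VPS2.1. Over all called probe sets, control replicate 1 was the control nearest to the isoxaben mean in 45.8%. The part of its outlier cells in these differences was not tested.

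**Figure D4:**
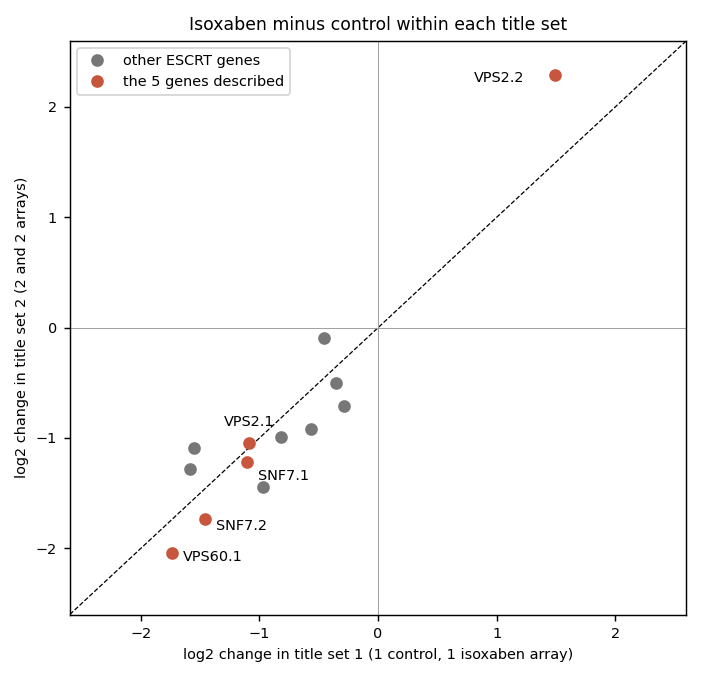
Log2 change (isoxaben minus control) within the first title set (x axis, 1 array per group) and within the second (y axis, 2 arrays per group) for the 13 named and tested ESCRT genes; the dashed line marks equal changes. VPS2.2 lies at 1.49 and 2.29, above the line, and all other genes are below 0 in both sets.

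Profiles over the 6 arrays, each centred on its own mean, were compared by Euclidean distance on the log2 scale. For genes with large changes, such distances mostly restate the size and direction of the isoxaben change. That change was known when the members were chosen, so the distances are a description only. Among the members, VPS60.1 and SNF7.2 were nearest (0.37), followed by SNF7.1 and VPS2.1 (0.56), while VPS2.2 lay at 3.84 to 4.94 from the others. Each member was then set against 1021 probe sets of genes with a name. Nearest to VPS60.1 were FYD (0.19) and the calmodulin-like CML43 (0.22), and to SNF7.1 the cytokinesis gene KEU (0.17) and CCT1, an enzyme of phosphatidylcholine synthesis (0.22). SNF7.2 was nearest to the lectin EULS3 (0.23) and to PWD, annotated as a phosphoglucan, water dikinase (0.24). VPS2.1 was nearest to APG8A, an ATG8 protein of autophagosome membranes (0.20), and to the glutathione transferase GSTU15 (0.22). VPS2.2 was nearest to genes of the chloroplast ATP synthase, the nuclear ATPC1 (0.28) and the plastid-encoded atpA (0.35). The median distance to these candidates was 1.47 to 2.52, depending on the member. The log2 changes of the genes nearest to the 4 lower members were -1.91 to -0.95, and those of ATPC1 and atpA were 2.16 and 1.88.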

How the data were processed

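The deposited table gives 1 linear signal intensity per probe set and array. The authors had scaled these intensity values, since with 2% trimmed from both tails all arrays had means between 100.006 and 100.008. No source used here names the algorithm behind them, and there are no detection calls. Precision is limited by the number of arrays.

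Titles gave the groups. No pair of arrays shared over 1.44% of equal values. The 64 control probe sets were dropped, values were taken as log2(signal + 16), and probe sets with a mean below the 40th percentile (signal 22.1) were left out, which kept 13648. Isoxaben was set against control in limma 3.58.1 under R 4.3.3 (lmFit, eBayes with intensity trend, two-sided, no covariate, Benjamini-Hochberg adjustment over all 13648). The spread behind each p-value is that between these samples and may be technical. The title set difference was the interaction of group and title set, whose residual spread comes from the second set alone before limma moderates it. The script was tested on simulated data.

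Gene names came from the platform annotation, updated through gene identifiers with RefSeq's TAIR10.1 table. Of all probe sets, 13513 had 1 gene, 503 several, and 8730 are unnamed here. The members and lists were chosen with earlier results of these data known. Named were all 5 members, the other ESCRT genes with a name and up to 3 called genes of the second list. Some ESCRT list genes without a name are given by locus. For likeness, the 2 nearest named genes per member were taken.

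Deviations from group means correlated at 0.207, 0.110 and 0.128 between arrays with the same number, but also at 0.101 and 0.118 between different numbers of the second title set. Between arrays of different title sets the correlations were negative, from -0.185 to -0.138. The labels give numbers 2 and 3, and the unnumbered first pair was called 1. Alternatives were quantile normalization, median centring, pseudocounts 1 and 64, no filter and a 60th percentile filter, a single prior variance, array weights, replicate and title set blocks, either title set by itself, and omission of 1 array at a time.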

Additional observations from a re-analysis of the deposited data

Results flagged for a closer look

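The isoxaben change of VPS2.2 differed between the title sets by 0.80 on the log2 scale, 1.49 in the first and 2.29 in the second (limma interaction, adjusted p = 0.0382). Of the 23 tested genes on the ESCRT list, 2 passed this test of the difference between the sets, where 4.44% of all probe sets did. The other was AT1G21380, known here by locus only, which changed by -1.20 in the first set and by -0.46 in the second, a difference of 0.74 (limma interaction, adjusted p = 0.0283). Without a filter on dim probe sets the interaction called 0 probe sets, with 4672 at an unadjusted p under 0.05, and the adjusted p of VPS2.2 was 0.149. In the first set stand only control replicate 1 with its 7023 outlier cells and isoxaben replicate 1 with the code DCB, so that a difference between the sets and a deviation of either array cannot be told apart.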

How the results depend on the processing

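In the 17 alternatives that allow a limma test, VPS2.2 was called higher and VPS60.1, SNF7.1, SNF7.2 and VPS2.1 lower each time. These settings called between 34.5% (no filter) and 72.3% (array weights) of all tested probe sets in either direction. As the 5 genes were chosen on this comparison, their repeated calls are no independent support. The size of the changes followed the pseudocount. With a pseudocount of 1 they were -2.16 for VPS60.1, -1.40 for SNF7.1 and -1.86 for SNF7.2, and with 64 they were -1.49, -0.80, -1.20 and, for VPS2.2, 1.73. In the first title set alone, VPS60.1 changed by -1.74, VPS2.2 by 1.49, VPS22 by -0.36 and ELC by -0.29. VPS36 changed there by -0.45, VPS60.2 by -0.57, VPS24.1 by -0.97 and VPS37-2 by -1.55. Each of these lay further from the value over all arrays than 1 SD between replicates of a group. A change taken from 1 array per group varies more than that SD, so this is a description and no test. Leaving out 1 array at a time gave -2.09 to -1.86 for VPS60.1, -1.24 to -1.09 for SNF7.1, -1.78 to -1.57 for SNF7.2, -1.15 to -0.97 for VPS2.1 and 1.88 to 2.23 for VPS2.2, and 14 to 15 lower calls among the other listed ESCRT genes. Over all probe sets it gave 3393 to 4582 higher and 3211 to 3868 lower calls. With the replicate number as a block, 4250 probe sets were higher and 3913 lower, 15 other ESCRT genes were lower, and no call of a named gene changed. A block for title set gave 4510 higher and 4144 lower probe sets, with 15 other ESCRT genes lower. Kept to loci annotated by name, a choice made after seeing the data, the other ESCRT genes gave 7 lower calls, since fewer genes were counted. Without a filter the limma interaction with title set called 0 probe sets, against 606, with 4672 at an unadjusted p under 0.05, and the cause was not tested. With the filter kept and a pseudocount of 64 it called 860. No listed gene had more than 1 named probe set, so averaging probe sets was not run. The table has no detection calls, so no signal can be called above background.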
